A study of Mus musculus with 6 samples.

Results

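The GIMAP genes (GTPases of the immunity-associated proteins) encode a family of small GTP-binding proteins, most of them anchored to or held near intracellular membranes of lymphocytes. They are known above all for their part in the survival of T and B cells, and several members are also expressed in endothelium and in myeloid cells. The family was examined here in brain cells of lupus-prone mice. The members were the 8 genes Gimap1, Gimap3, Gimap4, Gimap5, Gimap6, Gimap7, Gimap8 and Gimap9, found by symbol among the 55401 genes of the deposited count table, and each had enough counts to be tested.

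The libraries came from brains of untreated mice aged 6 weeks, 3 libraries of MRL/lpr mice and 3 of MRL/mpj mice. In MRL/lpr mice the death receptor Fas is mutated by the lpr allele on the MRL background, so that Fas-dependent death of lymphocytes is impaired, and MRL/mpj mice are the strain without it. Cells were digested from perfused brain, passed over Percoll and selected with CD11b beads, which take microglia and other myeloid cells alike. The labels do not say whether a library pooled animals or whether the libraries of a strain came from separate animals, so the p-values measure the spread between these libraries. Changes in a cell type's number and in its RNA per cell cannot be told apart in such bulk samples.

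Totals ran from 45481609 to 49846634 counts per library. CT010467.1 made up 6.38% of MRL/lpr replicate 3, and the top gene of every other library took less than that. The share of mitochondrial genes was 3.06% to 3.49% in MRL/lpr and 5.84% to 6.38% in MRL/mpj libraries. Xist, the RNA of the inactive X chromosome of females, was counted 8886 to 11319 times in MRL/lpr and 27 to 38 times in MRL/mpj libraries, while the Y genes Kdm5d, Eif2s3y, Ddx3y and Uty together had 8408 to 15046 counts in each library. The mice of the study are described as female, so these counts go against that description, and any effect of sex cannot be told apart from that of strain. Counts of 4 were more frequent than counts of 3 or 5 (1234, 377 and 254 genes in MRL/lpr replicate 1), so a count of 4 may stand for a single read pair.

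The 8 genes lie together on mouse chromosome 6 (GRCm38, GENCODE M21), in a span of 123.6 kb from Gimap8 (start 48647234) to Gimap3 (end 48770851). Their order is Gimap8, Gimap9, Gimap4, Gimap6, Gimap7, Gimap1, Gimap5 and Gimap3, with Gimap6 and Gimap3 on the minus strand and the other members on the plus strand. The family did not move as a block. Gimap6 and Gimap3 rose in MRL/lpr libraries, Gimap5 fell, and the other 5 members did not pass the test. To pass, a gene needed a Benjamini-Hochberg adjusted p, taken over the 19554 genes tested by quasi-likelihood in edgeR, of less than 0.05. By that rule 2 of the 8 members were higher and 1 was lower, where 20.2% of all genes tested passed, 11.1% higher and 9.06% lower. With the study's further minimum of 1 for the absolute log2 fold change, Gimap3 alone was called, where 8.34% of the genes tested were called, 4.67% higher and 3.66% lower. The median log2 fold change of the 8 members was -0.23, and that of all genes tested was -0.01.

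**Figure D1:**
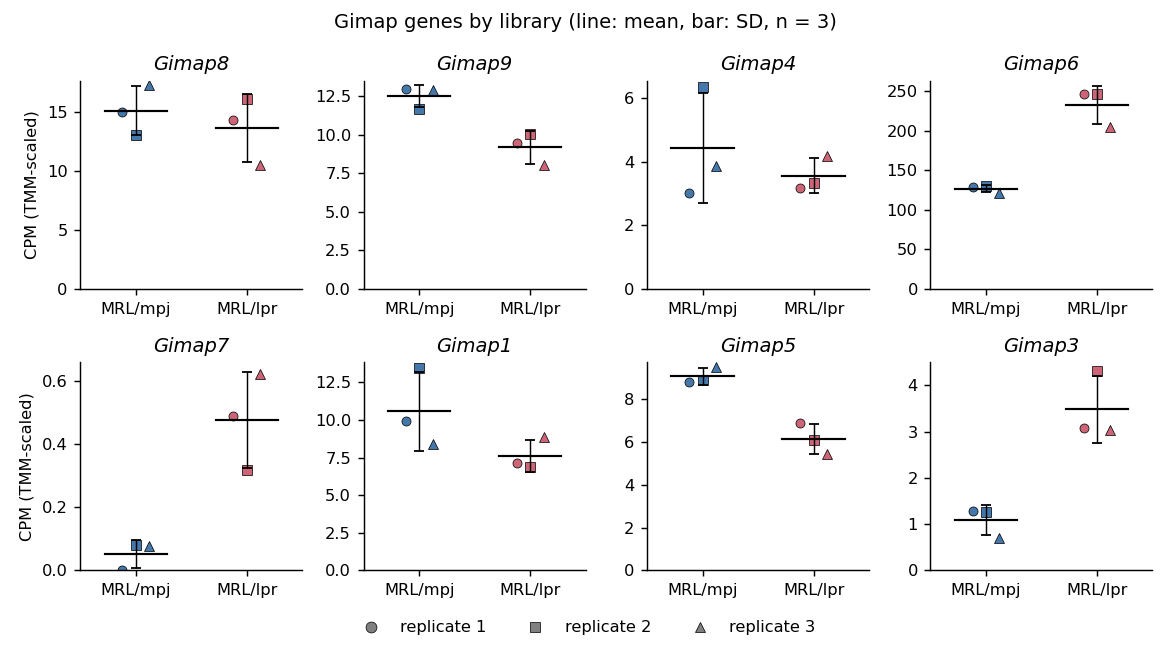
TMM-scaled CPM of the 8 Gimap genes in chromosome order, with a separate linear axis from 0 for each gene. Symbols are libraries, lines are means and bars are SD (n = 3). Gimap6, Gimap7 and Gimap3 are higher in each MRL/lpr library than in any MRL/mpj library, Gimap9 and Gimap5 are lower, and the other 3 overlap.

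Gimap6 was the most abundant member. Its product binds GABARAPL2, a protein of the autophagosome membrane, and takes part in autophagy in T cells. The MRL/lpr libraries held 11548, 11585 and 8572 of its counts, the MRL/mpj libraries 6597, 6523 and 6320. As CPM, counts relative to the library's TMM-scaled total, these were 246, 246 and 205 CPM against 128, 130 and 121 CPM. All MRL/lpr libraries lay above all MRL/mpj libraries, and the lowest MRL/lpr value belonged to replicate 3. Its log2 fold change was 0.87 (standard error 0.08, 95% interval 0.68 to 1.06, edgeR adjusted p = 8.86e-05), a fold of 1.83. It was the 468th gene by p among those tested. In FPKM, the deposited values divided by gene length and depth, Gimap6 stood above 96.4% to 98.2% of the 30602 genes with a deposited value, depending on the library.

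Gimap3 had the largest change among the members that passed the test. It encodes a membrane protein in mice that has been linked to the choice between mitochondrial DNA variants in blood cells. MRL/lpr libraries gave 145, 203 and 127 counts, and MRL/mpj libraries 66, 63 and 37. On the CPM scale this was 3.08, 4.31 and 3.04 against 1.28, 1.26 and 0.711. The strains did not overlap, although the replicates of each strain spread widely around their mean. The log2 fold change was 1.68 (standard error 0.32, 95% interval 0.95 to 2.41, edgeR adjusted p = 0.00563), a fold of 3.20.

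Gimap5 fell in MRL/lpr libraries. It is the member whose loss causes lymphopenia in rats and mice, and its product sits on lysosomes of T cells. MRL/lpr libraries gave 324, 286 and 228 counts, and MRL/mpj libraries 452, 444 and 495. In CPM these were 6.89, 6.08 and 5.46 against 8.79, 8.88 and 9.51, without overlap. The log2 fold change was -0.56 (standard error 0.16, 95% interval -0.92 to -0.20, edgeR adjusted p = 0.0339). This call was not firm. Leaving out any 1 library other than MRL/lpr replicate 1 brought the adjusted p above 0.05, up to 0.112 without MRL/mpj replicate 3, and edgeR with a replicate block gave 0.084.

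Gimap3 and Gimap5 stand side by side and are the closest pair of the family in sequence. Their coding sequences were identical at 90.6% of 898 aligned bases, whereas the other 20 pairs without Gimap8 had 58.1% to 68.9%. Gimap8 codes for 688 residues and the others for 291 to 328, so its alignments were left out of this range. The first bases of both coding sequences are shown because they hold both a stretch with many differences and a stretch with few. Capitals mark bases that differ or have no partner in the alignment. Both begin at the start codon and cross 1 exon junction. Gimap3 is on the minus strand at chr6:48765860-48766519 and Gimap5 on the plus strand at chr6:48750460-48752644 (GRCm38, GENCODE M21 transcripts, the interval including an intron).
Gimap3: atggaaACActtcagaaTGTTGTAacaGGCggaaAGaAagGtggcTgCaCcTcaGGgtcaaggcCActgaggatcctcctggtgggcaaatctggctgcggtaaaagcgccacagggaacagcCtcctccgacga
Gimap5: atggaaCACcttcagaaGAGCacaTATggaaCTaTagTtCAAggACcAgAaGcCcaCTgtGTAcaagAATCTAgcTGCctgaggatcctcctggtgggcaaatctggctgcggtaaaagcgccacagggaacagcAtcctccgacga
Of 150 alignment columns, 41 differed, nearly all of them before the stretch that codes for the GTP-binding loop. The longest run shared exactly by transcripts of both genes was 140 bases, and no window of 150 bases, the length of the reads, was common to them. A shorter, trimmed read could fit both genes, so their counts are uncertain to that extent.

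The ratio of these neighbours within a library does not depend on scaling. On the log2 scale, counts of Gimap3 over Gimap5 were -1.16, -0.49 and -0.84 in the MRL/lpr libraries and -2.78, -2.82 and -3.74 in the MRL/mpj libraries. The means were -0.83 ± 0.33 and -3.11 ± 0.55 (SD, n = 3), a difference of 2.28, with no overlap. Gimap6 over Gimap5 was 5.24 ± 0.09 against 3.81 ± 0.11 (SD, n = 3), and Gimap6 over Gimap9 was 4.66 ± 0.05 against 3.34 ± 0.12 (SD, n = 3). These ratios describe how unequally the members changed. For each of these 3 ratios the exact two-sided permutation test gave p = 0.1, the smallest value that 3 libraries against 3 allow. The members of each pair were already apart in opposite directions in CPM. The separation of these 3 ratios was thus fixed in advance and adds no further support. By contrast, Gimap9 over Gimap5 was 0.58 ± 0.14 against 0.46 ± 0.09 (SD, n = 3), and Gimap1 over Gimap5 was 0.31 ± 0.34 against 0.20 ± 0.39 (SD, n = 3). Both overlapped between strains, with exact permutation p of 0.3 and 0.7. Of 6 ratios computed this way, the sixth, Gimap6 over Gimap8, was 4.11 ± 0.18 against 3.08 ± 0.25 (SD, n = 3), with an exact permutation p of 0.1 as well.

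**Figure D2:**
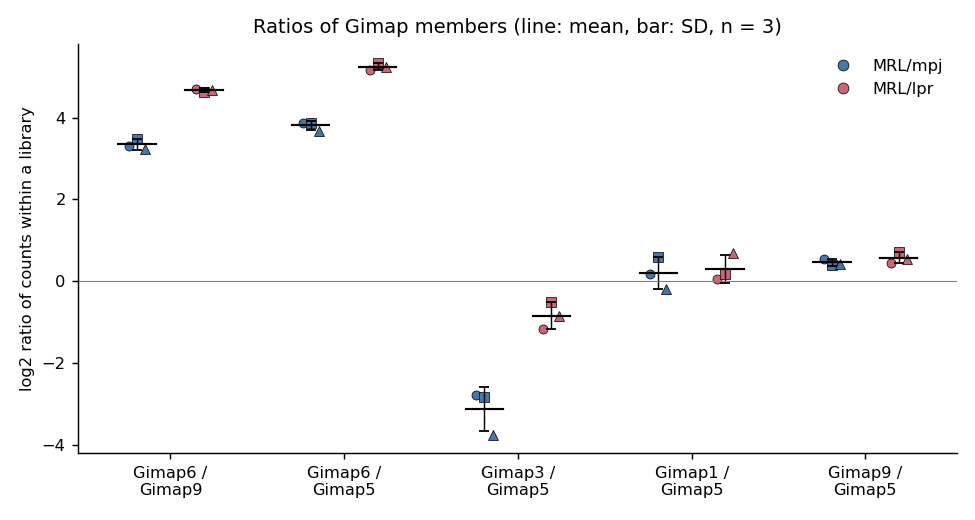
Log2 ratio of the counts of 2 members within each library, for 5 pairs. Points are libraries, lines are means and bars are SD (n = 3). The pairs of Gimap6 or Gimap3 with Gimap5 or Gimap9 separate the strains, and the pairs among Gimap1, Gimap5 and Gimap9 overlap.

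Gimap9, the second most abundant member per length, was counted 443, 474 and 335 times in MRL/lpr and 666, 584 and 669 times in MRL/mpj libraries. Each MRL/lpr library was below each MRL/mpj library, at 8.02 to 10.1 CPM against 11.7 CPM or more. The log2 fold change of -0.45 (95% interval -0.76 to -0.13; edgeR adjusted p = 0.0528) fell just outside the threshold. Over the alternatives its adjusted p ran from 0.0197 to 0.153.

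Gimap7 was close to the detection limit. Its product forms dimers and speeds GTP hydrolysis by other family members. It was counted 23, 15 and 26 times in MRL/lpr and 0, 4 and 4 times in MRL/mpj libraries. The strains did not overlap, but the MRL/mpj values are what a single read pair or none would give. The log2 fold change of 3.13 had a 95% interval from 0.69 to 5.56 and an edgeR adjusted p of 0.0745. DESeq2 gave an adjusted p of 0.0374 and called it, and limma on log2(FPKM + 0.1) gave 0.0163 and a log2 difference of 1.17.

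The remaining members overlapped between strains in CPM. Gimap1, which mature T and B cells need to survive, had 336, 323 and 370 counts against 509, 674 and 436 counts. Its counts and FPKM were lower in each MRL/lpr library, and only the TMM-scaled CPM overlapped, at 6.86 to 8.85 against 8.38 to 13.5. The log2 fold change was -0.47 (95% interval -0.93 to -0.02, edgeR adjusted p = 0.142). Gimap4, linked to the pace of T cell death, had 149, 157 and 175 counts against 156, 318 and 202 counts. Its log2 fold change of -0.31 (95% interval -0.98 to 0.35, adjusted p = 0.531 from edgeR) was 0.040 without MRL/mpj replicate 2, the library with 318 counts. Gimap8, the longest family protein, had 671, 756 and 437 counts against 771, 652 and 898 counts. Its log2 fold change of -0.15 (95% interval -0.55 to 0.25, adjusted p = 0.63 from edgeR) was 0.011 without MRL/lpr replicate 3. In all, CPM ranges of the strains were apart for 3 members that were higher and 2 that were lower in MRL/lpr libraries, where 39.0% of the genes tested were apart, 19.6% higher and 19.4% lower.

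**Figure D3:**
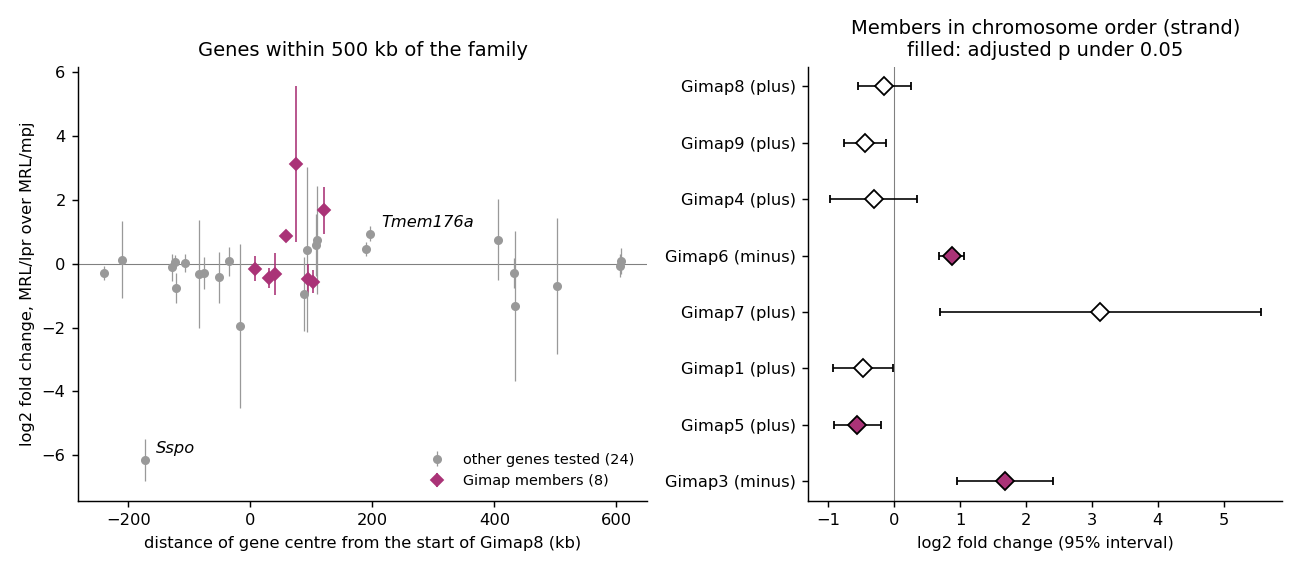
Log2 fold change of MRL/lpr over MRL/mpj with its 95% interval. Left, the 8 members and 24 other tested genes within 500 kb, by distance from the start of Gimap8. Right, the members in chromosome order with their strand, filled where the adjusted p was under 0.05. Members with positive and negative values are interspersed along the cluster, and Sspo, at -6.15, stands far below every other gene of the region.

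Per length, the order of the members was the same in both strains, namely Gimap6, Gimap9, Gimap8, Gimap1, Gimap4, Gimap5, Gimap3 and Gimap7. In the MRL/lpr libraries the mean FPKM of Gimap6 was 57.0 ± 7.45, that of Gimap9 4.78 ± 0.684 and that of Gimap7 0.17 ± 0.046 (SD, n = 3). For MRL/mpj libraries these genes had 33.7 ± 1.25, 7.07 ± 0.394 and 0.02 ± 0.017 FPKM (SD, n = 3). Gimap6 was thus 11.9-fold above Gimap9 in MRL/lpr and 4.77-fold above it in MRL/mpj libraries. The ranges of Gimap8 and Gimap1 overlapped in both strains. Gimap5 and Gimap3 overlapped in MRL/lpr libraries, at 1.26 ± 0.180 and 1.15 ± 0.263 FPKM (SD, n = 3), but were 5.19-fold apart in MRL/mpj libraries, at 2.02 ± 0.084 and 0.39 ± 0.113 FPKM (SD, n = 3). In MRL/mpj libraries Gimap1 with Gimap4, and Gimap4 with Gimap5, also overlapped.

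Gimap6 made up 79.9% ± 0.894 of the summed FPKM of the family in MRL/lpr libraries and 64.3% ± 0.971 in MRL/mpj libraries (SD, n = 3). The share of Gimap9 was 6.70% ± 0.219 against 13.5% ± 1.16, and that of Gimap5 was 1.77% ± 0.123 against 3.86% ± 0.276 (SD, n = 3). As parts of 1 sum, these shares also depend on the rise of Gimap6. The folds of Gimap9 and Gimap5 themselves were 0.73 and 0.68. The share of Gimap8 was 4.38% against 7.25%, although its log2 fold change was only -0.15. Summed over the 8 members, the level was 290, 293 and 246 CPM in MRL/lpr libraries and 179, 185 and 174 CPM in MRL/mpj libraries, a ratio of 1.54. Without Gimap6 the direction turned, at 44.5, 47.0 and 40.6 CPM against 51.0, 54.8 and 52.7 CPM, a ratio of 0.834. For both sums the strains were apart and the exact two-sided permutation test gave p = 0.1, the smallest it can give. Gimap6 held 84.0% of the member counts in MRL/lpr and 70.6% in MRL/mpj libraries on average, and was itself apart in CPM. The separation of the sum of 8 members thus followed from Gimap6 and adds no further support. Adjusted over the 12 sums and ratios tested, an exact permutation p of 0.1 became 0.12.

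**Figure D4:**
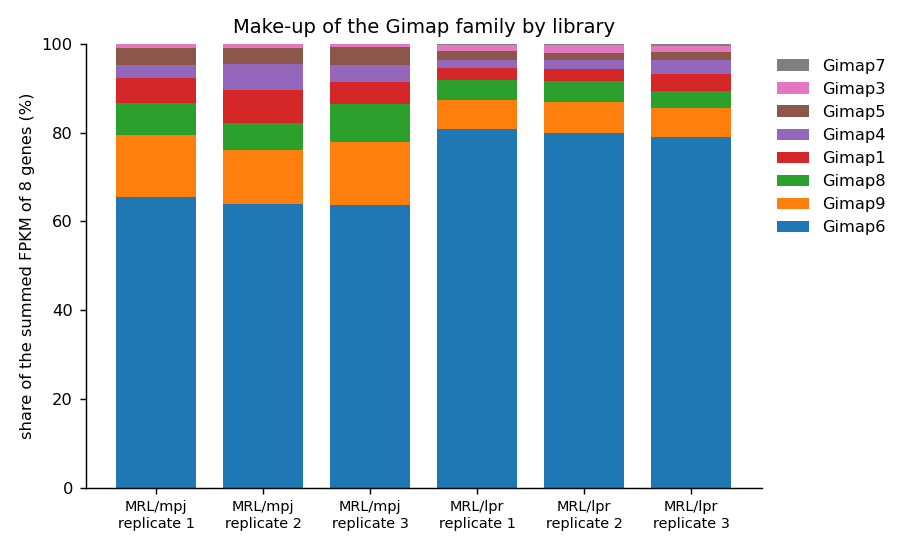
Share of each member in the summed FPKM of the 8 genes, in percent, 1 stacked bar per library. Gimap6 takes 63.6% to 65.4% in the MRL/mpj libraries and 79.0% to 80.8% in the MRL/lpr libraries.

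The promoters of the 3 members that passed the test are shown with the motifs searched. Sequences are those of RefSeq on GRCm38.p6, from 250 bases before to 50 bases after the gene start, 5′ to 3′ on the strand of the gene, and come from the reference strain, not from MRL mice. Each of the 8 members had such a sequence, and Gimap8 had 2, so that there were 9 windows. Capitals mark matches on either strand to any of 5 motifs. The core bound by ETS factors was searched as GGAAGT. The core bound by RUNX factors, regulators of lymphoid genes, was searched as TGTGGT. The spacing bound by STAT factors downstream of cytokine receptors was searched as TTCNNNGAA. The TATA box of the basal promoter was searched as TATAAA, and the interferon response element was the fifth motif. Gimap6 is at chr6:48708195-48708494 on the minus strand, Gimap3 at chr6:48770802-48771101 on the minus strand and Gimap5 at chr6:48745947-48746246 on the plus strand.
Gimap6: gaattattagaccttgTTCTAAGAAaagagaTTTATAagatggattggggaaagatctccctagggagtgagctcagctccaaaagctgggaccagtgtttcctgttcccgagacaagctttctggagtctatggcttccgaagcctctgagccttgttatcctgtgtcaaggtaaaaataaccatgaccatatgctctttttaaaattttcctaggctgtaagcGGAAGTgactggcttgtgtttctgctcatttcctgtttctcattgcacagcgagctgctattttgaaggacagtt
Gimap3: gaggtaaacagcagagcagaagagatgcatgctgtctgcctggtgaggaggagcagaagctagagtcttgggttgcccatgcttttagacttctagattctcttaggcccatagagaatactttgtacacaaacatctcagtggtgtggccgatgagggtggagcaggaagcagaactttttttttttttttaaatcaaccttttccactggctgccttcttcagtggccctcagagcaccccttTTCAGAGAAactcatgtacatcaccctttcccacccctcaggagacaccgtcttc
Gimap5: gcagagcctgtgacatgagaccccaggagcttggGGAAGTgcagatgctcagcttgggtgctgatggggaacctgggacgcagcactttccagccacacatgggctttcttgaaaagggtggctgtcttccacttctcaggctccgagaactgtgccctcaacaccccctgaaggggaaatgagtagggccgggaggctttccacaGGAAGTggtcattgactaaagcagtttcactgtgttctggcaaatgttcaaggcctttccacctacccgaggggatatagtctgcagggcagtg
In Gimap6 the STAT spacing, the TATA box and the ETS core each had 1 match, in Gimap3 the STAT spacing had 1 match, and in Gimap5 the ETS core had 2 matches. The TATA box letters in Gimap6 lay at -219 from the gene start and on the opposite strand. Over the family, the STAT spacing occurred in 4 of 8 members (Gimap3, Gimap6, Gimap7 and Gimap8, the last in 1 of its 2 windows) and in 8.3% of 32851 promoters of the same length. A member was counted where any of its windows matched, whereas the share over all promoters was counted by window. The ETS core occurred in 4 of 8 members (Gimap1, Gimap5, Gimap6 and Gimap9) and in 23.8% of promoters, the RUNX core in 3 of 8 and 16.8%, and the TATA box in 1 of 8 and 13.6%. No member matched the interferon response element, which 3.4% of promoters held. Such matches are descriptions of letters in a window, and binding was not measured here.

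The cluster holds overlapping genes that bear on single counts. Gm28053, an annotated gene that runs from Gimap7 across Gimap1 to Gimap5, shared 43.7% of its exon bases with same-strand neighbours and had 16, 20 and 24 counts in MRL/lpr libraries against 41, 58 and 33 counts in MRL/mpj libraries. Its log2 fold change of -0.95 did not pass the test (edgeR adjusted p = 0.253). Gimap1os, an antisense transcript, overlapped Gimap1, of whose exon bases 36.0% lay under exons on the other strand. It had 22, 35 and 0 counts against 19, 6 and 21 counts, far fewer than Gimap1, and whether the counting used strand is not given in the sources used here. Exons of Gimap3, Gimap4, Gimap6, Gimap8 and Gimap9 overlapped no other gene.

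Within 500 kb of the family GENCODE lists 52 further genes, of which 24 were tested. Of those, 4 passed the adjusted p, 2 higher and 2 lower in MRL/lpr, a share below the 20.2% of all genes tested. Tmem176a and Tmem176b, membrane protein genes of myeloid cells 63.0 kb or more beyond Gimap3, rose by 0.94 and 0.47 on the log2 scale, with edgeR adjusted p of 0.000229 and 0.00792. Without MRL/lpr replicate 3 the higher genes numbered 1, and without MRL/lpr replicate 2 the lower genes numbered 1. On the other side, 146.0 kb before Gimap8, Sspo, the gene of the subcommissural organ glycoprotein SCO-spondin, fell to 16, 36 and 14 counts from 1476, 1806 and 2011 counts. The pseudogene Gm7887 fell by 0.77 on the log2 scale. The median log2 fold change of the 24 genes was -0.08.

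As for genes whose products bind or act with GIMAP proteins, 15 were listed and all were tested. By the adjusted p-value, 3 were higher in MRL/lpr libraries and the other 12 did not pass the test, so that the share that passed was near the 20.2% of all genes tested. The median log2 fold change was 0.18. Bak1, a pore-forming protein of apoptosis, rose by 0.70, Map1lc3a, an autophagosome protein, by 0.53 and the kinase gene Mtor by 0.30, with adjusted p of 0.0132, 0.0151 and 0.0373 from edgeR. Gabarapl2, the partner of Gimap6, had a log2 fold change of -0.06 (edgeR adjusted p = 0.785), and Bcl2 had 0.16 (edgeR adjusted p = 0.453). The number of higher genes fell to 0 when MRL/mpj replicate 1 was left out and to 1 without MRL/mpj replicate 3, and reached 5 without MRL/lpr replicate 3.

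**Figure D5:**
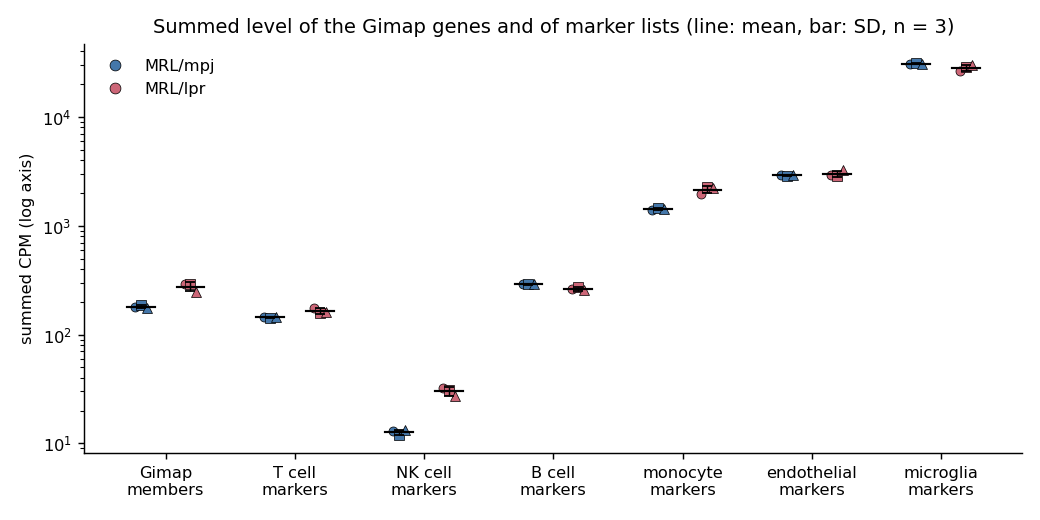
Summed CPM of the 8 Gimap genes and of 6 marker lists, on a log axis. Points are libraries, lines are means and bars are SD (n = 3). The sums of the Gimap, T cell, NK cell and monocyte lists are higher in each MRL/lpr library, those of the B cell and microglia lists are lower, and the endothelial sums overlap. The difference in the monocyte sums lies largely in Nr4a1.

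Markers of other cells that the CD11b selection could hold were counted in the same way, against shares of 11.1% higher and 9.06% lower over all genes tested. The samples held the labelled cell type, since the 14 microglia markers summed to 26521 to 30021 CPM in MRL/lpr libraries and 30586 to 31579 CPM in MRL/mpj libraries, with 3 lower by the adjusted p-value and 11 that did not pass. Without MRL/lpr replicate 3, 6 were lower. Of 25 T cell markers tested, 16 were higher and 1 was lower, with a median log2 fold change of 1.72. Cd3e, a chain of the T cell receptor complex, had 103, 92 and 120 counts against 2, 0 and 9 counts. Cd8b1, the CD8 beta chain, had 70, 77 and 28 counts against 0 counts in each MRL/mpj library. Cd8a rose by 2.90 and Lck, a kinase of T cell receptor signalling, by 1.72 on the log2 scale. Il7r, the receptor chain for interleukin 7, fell by 0.41, from a mean of 88.1 CPM in MRL/mpj to 66.3 CPM in MRL/lpr libraries. The summed list, Il7r included, was 158 to 176 CPM against 143 to 145 CPM.

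Of 10 NK cell markers tested, 6 were higher (Nkg7, Gzma, Gzmb, Prf1, Eomes and Il2rb) and the other 4 did not pass the test. Those 4 went in both directions. Klrb1c had 23, 0 and 0 counts against 75, 16 and 82 counts, and Klrd1 had a log2 fold change of -0.38. Ncr1 and Klrk1 had log2 fold changes of 0.99 and 0.98. The list of 13 summed to between 27.1 and 32.2 CPM against 13.2 CPM or less, with Klra8 at 0 in each library. Of 14 monocyte markers, 6 were higher and 2 lower, with sums of 1961 to 2256 CPM against 1382 to 1448 CPM. The difference between these sums lay largely in Nr4a1, at 1264 to 1544 CPM against 682 to 732 CPM. The lower markers were Chil3 and Ace. Ccr2 did not pass the test but was lower in each MRL/lpr library, at 5.84 to 8.27 CPM against 8.29 to 8.72 CPM. B cell markers gave 1 higher and 1 lower of 10 tested, summed to 255 to 275 CPM against 289 to 293 CPM, and Cr2 was at 0 in each library. The B cell counts were near the shares over all genes tested, 11.1% higher and 9.06% lower. Endothelial markers gave 2 higher and 4 lower of 16, with overlapping sums of 2851 to 3226 CPM and 2856 to 2931 CPM. Border macrophage markers gave 1 higher and 2 lower of 9, and of 9 neutrophil markers 3 were higher and the other 6 did not pass. The endothelial and border macrophage lists were near the share of 11.1% for higher markers and above that of 9.06% for lower ones. Leaving out 1 library moved some of these counts, to 1 lower NK cell marker without MRL/lpr replicate 1, to 2 higher B cell markers without MRL/mpj replicate 3, to 2 lower B cell markers without MRL/mpj replicate 2, and to 2 lower endothelial markers without MRL/lpr replicate 1, MRL/lpr replicate 2 or MRL/mpj replicate 2. The part of these cells in the Gimap values was not tested.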

How the data were processed

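Cells were sequenced as paired reads of 150 bases. Per the labels, the submitters' processing notes name cutadapt 1.9.3, HISAT2 2.0.4, Cufflinks, Cuffdiff 2.2.1 and the build GRCm38; the methods name DESeq2 for the test. The labels describe removal of ribosomal RNA and a stranded kit, and the methods describe purified mRNA. The counting tool and annotation are not given in the sources used here. Gene counts were deposited by the authors as raw whole numbers. In separate files, the authors gave FPKM, scaled to gene length and depth. The lengths implied by FPKM were 1.122 to 1.129 times the GENCODE M21 exon lengths for the 7 members with FPKM of at least 1. Symbols came from GENCODE M21, which matched 55141 of 55401 identifiers.

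Counts were filtered with filterByExpr at its defaults (minimum count 10, minimum total 15), scaled by TMM and fitted with edgeR 4.0.16 in R 4.3.3, with robust dispersions, no covariate and Benjamini-Hochberg adjustment over 19554 genes. Standard errors were the log2 fold change divided by the square root of the F statistic. The edgeR steps were also run on simulated counts with the same dispersion for all genes. Counts in steps of 4 were not simulated, so that run does not bear on the calls of low-count genes. Alternatives were DESeq2 1.42.0, limma 3.58.1 on log2(FPKM + 0.1), other scaling, filters and dispersions, counts divided by 4, a replicate block and each library left out. All members, the lists' genes, genes within 500 kb and the 5 genes outside the family closest in pattern to the summed members were eligible to be named. The members and lists were chosen with earlier results of these data known. A planned search for a protein motif was not run.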

Additional observations from a re-analysis of the deposited data

How the results depend on the processing

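Gimap3 and Gimap6 kept their direction and passed the adjusted p-value in each alternative run, with log2 fold changes from 1.45 to 1.82 and from 0.83 to 0.96 when 1 library was left out. Gimap1 kept its direction and did not pass in any, at -0.62 to -0.27 without 1 library. Gimap5 kept its direction, at -0.65 to -0.48 without 1 library, and with the replicate block it was -0.57 with an adjusted p of 0.084. Gimap9 passed with scaling by library size only (-0.57), with counts divided by 4 (-0.43) and with limma on FPKM (-0.56), and ran from -0.52 to -0.35 without 1 library. Gimap7 passed with DESeq2 (3.18) and with limma on FPKM (1.17), and ran from 2.56 to 3.54 without 1 library. After division of the counts by 4 it fell below the filter and has no value. Gimap4 ran from -0.52 to 0.040, and reversed to 0.040 without MRL/mpj replicate 2. Gimap8 ran from -0.29 to 0.011, and reversed to 0.011 without MRL/lpr replicate 3. The cause of these shifts was not tested.

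The number of members called higher with the fold minimum was 2 with DESeq2 and 2 with limma on FPKM, and 1 in each fit without 1 library. The number lower by adjusted p was 2 with library size only, with counts divided by 4 and with limma on FPKM, 0 with the replicate block, and 0 to 1 without 1 library. The log2 ratio of the summed members, 0.62 with TMM, was 0.50 with library size only and 0.44 from FPKM, and 0.58 to 0.70 without 1 library. Scaling by library size moved the median log2 fold change of all genes to -0.13. DESeq2's test, the count filter, dispersions and the block do not act on the sums, so no value was computed for them.

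With library size only, 3 B cell markers were lower, 1 endothelial marker was higher and 5 microglia markers were lower. With limma on FPKM, 3 B cell markers were higher and 4 lower, 1 endothelial marker was higher, 5 microglia markers were lower and 1 neighbouring gene was higher. With counts divided by 4 and with DESeq2, 2 B cell markers were higher. With the replicate block, 1 partner gene was higher. Without 1 library, the numbers ran from 1 to 2 for B cell markers in either direction, 0 to 1 for lower NK cell markers, 2 to 3 for higher and 2 to 6 for lower endothelial markers, 3 to 6 for lower microglia markers, 0 to 5 for higher partner genes and 1 to 2 for neighbouring genes in either direction. Higher T cell markers ran from 12 to 15 and higher NK cell markers stayed at 6.

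Same-numbered libraries of the strains had correlations of their deviations from the strain means of -0.0409, -0.0202 and -0.0325. Differently numbered libraries had 0.00246 to 0.0328. No pairing by number was seen in these values, but whether same-numbered libraries shared a preparation or sequencing batch was not tested. Gimap5 was the only member whose call the replicate block changed. At these depths a gene such as Gimap7, with at most 4 counts in each MRL/mpj library, can be placed only within a wide interval.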

Other observations

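Among 16364 genes outside the family with at least 10 counts in each library, the 5 whose centred log2 CPM over the 6 libraries lay closest to that of the summed Gimap members were Hspa5, Clic4, Btg1, the predicted gene Gm13443 and Zup1. Their root-mean-square distances were 0.034 to 0.041 on the log2 scale. Hspa5, the main chaperone of the endoplasmic reticulum, had 4234, 4239 and 3371 CPM in MRL/lpr libraries and 2532, 2728 and 2489 CPM in MRL/mpj libraries. Clic4, an intracellular chloride channel protein, had 277, 292 and 247 CPM against 178, 178 and 178 CPM. Btg1, an antiproliferative gene, had 984, 971 and 844 CPM against 602, 587 and 577 CPM. Each of the 3 was lowest in replicate 3 among the MRL/lpr libraries, as was Gimap6, which holds most of the summed members.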
